A study of Mus musculus with 6 samples.

Results

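The regions described here were the FXR binding peaks of mouse liver that the authors assigned to 7 genes of the hepatocyte canalicular membrane: Abcb11, Abcb4, Abcc2, Abcg2, Abcg5, Abcg8 and Atp8b1. They were taken from the deposited peak tables by gene name, which gave 49 of 32535 peaks. Of these, 29 lay among the 20040 peaks of control liver and 20 among the 12495 peaks of liver without hepatocyte Bcl6. Peaks of the genotypes with 1 bp or more in common are termed shared.

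FXR ChIP-seq was done on liver of male C57BL/6 mice. Bcl6fl/fl mice, which carry floxed Bcl6 alleles and no Cre, were the controls and are written WT. Bcl6LKO mice carry the same floxed alleles together with an albumin-Cre transgene, whose promoter is active in hepatocytes, and are written LKO. Each genotype had 2 ChIP libraries, taken with antibody E4B8P against FXR, and 1 input library of chromatin sequenced without immunoprecipitation. The ages of the mice and any feeding state particular to these livers were not given, and nothing in the labels said whether the libraries of a genotype came from separate mice, so the spread between them may be technical. In chromatin from whole liver, binding in fewer cells and weaker binding per cell cannot be told apart, and the loss of Bcl6 itself could not be checked in these libraries.

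Bile is formed when hepatocytes pump solutes across the canalicular membrane, and each exporter handles a different component. ABCB11, the bile salt export pump, moves bile salts (BAs); ABCB4 moves phosphatidylcholine outward, so that it can be taken up by BA micelles; and ABCG5 and ABCG8 act as a heterodimer that secretes cholesterol. ABCC2 exports conjugated bilirubin and other organic anions, ABCG2 exports a wide range of drugs and conjugates, and ATP8B1 is a flippase that keeps the lipid asymmetry of this membrane. FXR is a nuclear receptor activated by BAs, binds DNA with RXR, typically at inverted repeats of a 6-base site, and is known as an activator of Abcb11 and Abcb4.

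The sequences below are the strongest WT peaks of Abcb11, Abcb4, Abcg8 and Abcc2, the other WT peak that held the FXR motif, and the promoter peak of Abcg8 and Abcg5. The strongest Abcc2 peak and this promoter peak held no such motif. The peaks of Atp8b1 and Abcg2, none of which held the motif, are described without their sequences. Capitals mark the inverted repeat IR1, which is AGGTCA, 1 spacer base and TGACCT, allowing up to 2 mismatches among the 12 bases scored. Both strands were searched. Each is the plus strand of mm10, read 5′ to 3′ from GRCm38.p6, which has the same coordinates. The regions are chr2:69342571-69342781 (Abcb11 promoter), chr5:8928626-8928836 (intron 14 of 27 of Abcb4), chr5:8873504-8873714 (intergenic, 20.1 kb upstream of Abcb4), chr17:84693871-84694081 (intron 6 of 12 of Abcg8), chr19:43792622-43792832 (intron 2 of 31 of Abcc2) and chr17:84683395-84683605 (promoter of Abcg8 and Abcg5, inside Abcg8).
Abcb11 promoter: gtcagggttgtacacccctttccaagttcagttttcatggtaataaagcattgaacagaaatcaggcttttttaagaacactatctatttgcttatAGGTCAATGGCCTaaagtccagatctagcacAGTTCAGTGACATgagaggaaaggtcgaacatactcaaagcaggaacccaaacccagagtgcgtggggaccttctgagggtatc
Abcb4 intron 14: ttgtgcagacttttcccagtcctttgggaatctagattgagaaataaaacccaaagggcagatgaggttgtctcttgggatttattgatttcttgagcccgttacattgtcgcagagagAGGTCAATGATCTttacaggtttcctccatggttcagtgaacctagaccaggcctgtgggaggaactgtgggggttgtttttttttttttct
Abcb4 upstream: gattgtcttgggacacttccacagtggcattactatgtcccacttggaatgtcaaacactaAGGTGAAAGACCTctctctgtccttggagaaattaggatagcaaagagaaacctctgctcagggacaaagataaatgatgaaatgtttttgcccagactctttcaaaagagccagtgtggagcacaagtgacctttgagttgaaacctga
Abcg8 intron 6: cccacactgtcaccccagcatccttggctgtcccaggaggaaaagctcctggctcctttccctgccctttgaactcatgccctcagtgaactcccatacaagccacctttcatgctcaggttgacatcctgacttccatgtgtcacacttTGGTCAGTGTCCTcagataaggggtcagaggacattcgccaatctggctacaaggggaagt
Abcc2 intron 2: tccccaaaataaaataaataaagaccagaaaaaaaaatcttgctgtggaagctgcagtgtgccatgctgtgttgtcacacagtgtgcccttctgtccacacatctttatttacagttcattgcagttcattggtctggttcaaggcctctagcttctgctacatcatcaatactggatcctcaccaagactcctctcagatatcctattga
Abcg8 and Abcg5 promoter: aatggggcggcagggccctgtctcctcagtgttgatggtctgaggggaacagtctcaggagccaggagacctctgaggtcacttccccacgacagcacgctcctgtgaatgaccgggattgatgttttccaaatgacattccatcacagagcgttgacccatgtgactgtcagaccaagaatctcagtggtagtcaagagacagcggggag

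Peaks were assigned to 6 of the 7 genes in WT and to 5 in LKO. Atp8b1 had 10 WT and 6 LKO peaks, Abcb4 6 and 6, Abcc2 6 and 3, Abcg8 5 and 4, and Abcb11 1 and 1. Abcg2 had 1 WT and 0 LKO peaks, and Abcg5 had 0 in both lists. The genes were thus unlike in how their peaks were laid out: Abcb11 carried a single promoter peak, whereas those of Atp8b1 were mostly spread through intron 1. A gene with 6 or more peaks was uncommon, at 6.33% of the 9025 genes of the WT list and 2.94% of the 6877 of the LKO list. Of the 6 members with a WT peak, 5 also had an LKO peak, where 69.2% of all genes with a WT peak did.

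**Figure D1:**
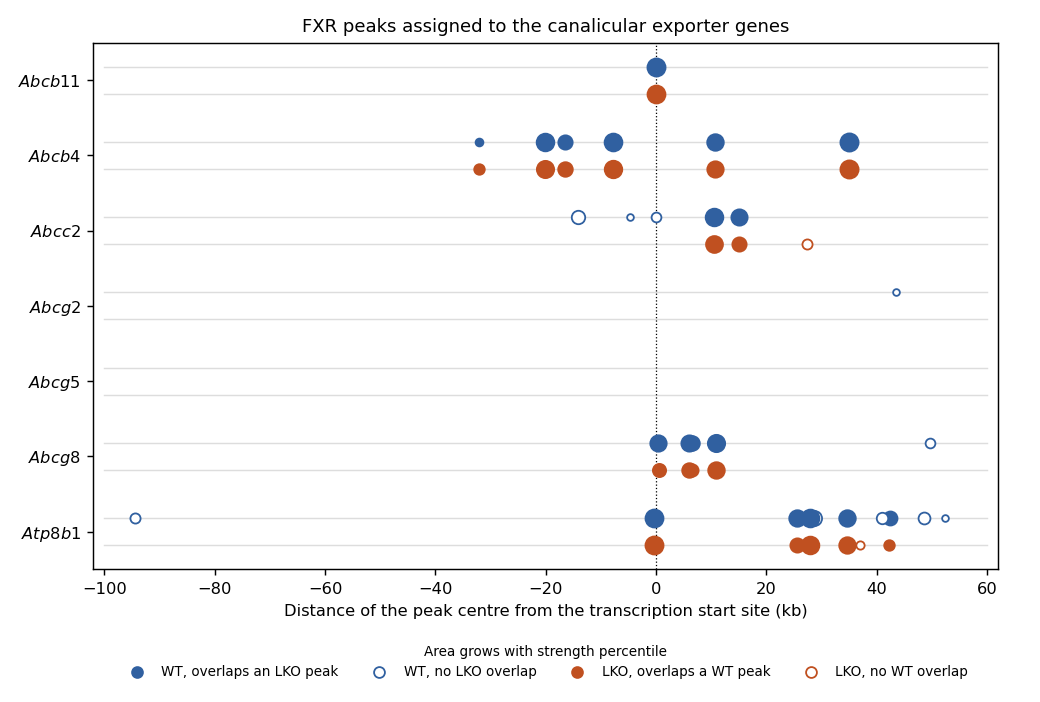
Position of each FXR peak assigned to the 7 genes, as distance of its centre from the transcription start site in kb (horizontal axis), with WT in the upper and LKO in the lower line of each gene; filled circles overlap a peak of the other genotype and open circles do not. All 6 Abcb4 peaks were shared, while 11 of the 29 WT peaks, at Abcc2, Abcg2, Abcg8 and Atp8b1, had no LKO counterpart.

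Of the 29 WT peaks, 18 overlapped an LKO peak (62.1%, 95% Wilson interval 44.0 to 77.3), beside 49.5% of all WT peaks. Of the 20 LKO peaks, 18 overlapped a WT peak (90%, 69.9 to 97.2), beside 79.4% of all LKO peaks. The intervals cover counting error only, peaks near a gene are not independent, and each list was called once on pooled libraries, so these shares have no replicate spread. Overlapping peaks lay almost on top of each other: their centres were 1 to 58 bp apart, with a median of 13 bp. The shared peaks comprised the 1 peak of Abcb11, all 6 of Abcb4, 4 at Abcg8, 5 at Atp8b1 and 2 at Abcc2.

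Sharing went with strength, taken as the mean log2 value of the ChIP libraries of a list. At or above the median strength of the WT list, 17 of 18 members were shared, where 75.5% of all such WT peaks were. Below it, 1 of 11 was shared, where 23.5% of all such peaks were. In LKO, all 14 members at or above the median were shared, where 92.3% of such LKO peaks were. Below the LKO median, 4 of 6 members were shared too. The share of all LKO peaks below that median was not computed, so this count does not set the members apart. The shared members had a median strength percentile of 80.4 in WT and 79.1 in LKO, and the 11 unshared WT members one of 19.4. The members as a whole stood somewhat above the middle of their lists, with median percentiles of 64.4 and 68.9.

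**Figure D2:**
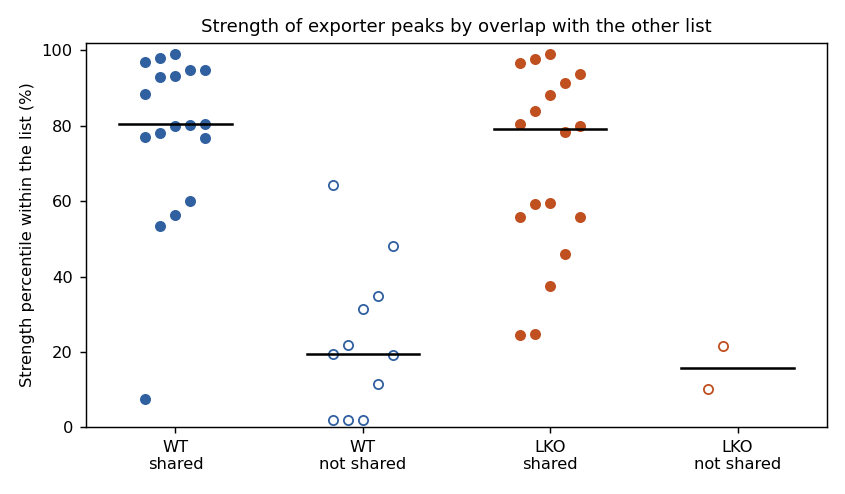
Strength percentile of each exporter peak within its own list (vertical axis, %), split by genotype and by overlap with the other list; black lines are medians. The 11 unshared WT peaks had a median of 19.4, and 18 shared WT peaks one of 80.4.

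Levels are given below as the deposited log2 value of a library minus that library's median over the 9918 shared peaks, called the relative level, so that 0 is an ordinary shared peak. The WT and LKO tables were normalized separately, and 2 libraries against 2 cannot give an exact two-sided permutation p below 0.333, so no test between genotypes was made. A difference is therefore set beside the pooled SD of the libraries. WT replicate 2 was shallow, with 2883717 tags against 19022618 to 22637613 in the other ChIP libraries. The inputs held 6964271 tags in WT and 6935001 in LKO. Among all 9918 shared peaks, the difference exceeded the pooled SD at 63.2%, both LKO libraries lay above both WT libraries at 29.8%, and both lay below at 25.2%.

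At Abcb11, the only peak was centred 60 bp upstream of the transcription start site in WT and 55 bp upstream in LKO. The gene is on the minus strand at chr2:69238282-69342616, and no peak of either list was centred in its gene body. Estimated tags at the peak were 306 and 63.8 in the WT libraries (replicates 1 and 2, in this order throughout) and 166 and 211 in the LKO libraries. Its relative level was 2.26 and 2.20 in the WT libraries and 2.01 and 2.46 in the LKO libraries. The WT values lay between the LKO values, and the means were 2.23 ± 0.04 (SD, n = 2) and 2.23 ± 0.32, which differed by 0.00 beside a pooled SD of 0.23. The difference was 0.23 without LKO replicate 1 and -0.22 without LKO replicate 2, so the 0.00 was the average of values on either side of it. It ranked 397 of 20040 peaks in WT and 437 of 12495 in LKO. The input value at this peak was 0.01 in WT and 2.53 in LKO on the log2 scale, or an estimated 0.727 and 2.36 tags, and its part in the result was not tested.

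The Abcb11 promoter peak carried 2 IR1 matches that did not overlap, both on the plus strand. The first, AGGTCAATGGCCT at chr2:69342667-69342679, lay 3 bp from the centre of the WT peak and 2 bp from that of the LKO peak. It had 1 mismatch, A10G, with positions counted from 1 at the 5′ end of the repeat and the consensus base first. The other, AGTTCAGTGACAT at chr2:69342698-69342710, had 2 mismatches, G3T and C12A. An everted repeat with 8 spacer bases (ER8: TGACCT, 8 bases, AGGTCA) with 2 mismatches overlapped the latter.

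Abcb4, on the plus strand at chr5:8893721-8959226, had no promoter peak in either list, and its nearest peak was 7736 bp from the start site in WT and 7730 bp in LKO. Its strongest peak, 35010 bp into the gene in intron 14, was also the strongest of any member in both lists, at rank 226 in WT and 117 in LKO. Estimated tags were 293 and 104 in the WT libraries and 296 and 317 in the LKO libraries. The relative level was 2.20 and 2.90 in WT and 2.84 and 3.04 in LKO. The highest WT value lay above the lowest LKO value, so the genotypes overlapped. The LKO mean was 0.39 higher, beside a pooled SD of 0.37; the difference was 0.04 without WT replicate 1 and 0.74 without WT replicate 2. The LKO input was high at this peak too, at 2.56 against 0.05 in WT, or an estimated 2.41 and 0.750 tags, and its part was not tested.

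The intron 14 peak of Abcb4 held the IR1 match AGGTCAATGATCT at chr5:8928745-8928757, 20 bp from the WT centre, with the single mismatch C11T. It also held TTCAGTGAA, an exact match to TTCNNNGAA, the palindrome bound by STAT factors and by BCL6, 50 bp from the WT centre. Upstream of the gene, the intergenic peak at 20.1 kb held the IR1 match AGGTGAAAGACCT at chr5:8873565-8873577, with C5G and T8A. The relative level there was 1.13 and 1.54 in WT and 1.42 and 1.04 in LKO, and the libraries of the genotypes were interleaved. The difference was -0.11, within the pooled SD of 0.28.

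The peak 7.7 kb upstream of Abcb4, which the annotation places in a URR1A element of the hAT-Charlie family, had relative levels of 1.70 and 1.45 in WT and 1.52 and 1.47 in LKO. All 4 values lay within a narrow range, and the difference was -0.07, within the pooled SD of 0.13. It held no IR1 match, so strong binding at Abcb4 was seen at peaks with and without one. In intron 4, 10675 bp into the gene, the relative level was 0.52 and 0.18 in WT and 0.65 and 0.66 in LKO. Both LKO values lay above both WT values there, with a difference of 0.31 and a pooled SD of 0.17. That difference was 0.14 without WT replicate 2 and 0.48 without WT replicate 1.

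The remaining Abcb4 peaks were weaker. At 16.5 kb upstream the relative level was 0.02 and -1.04 in WT and -0.16 and 0.19 in LKO, a difference of 0.53 within the pooled SD of 0.56; WT input was high there, at 2.27. The peak 32.1 kb upstream lay in exon 26 of 28 of the neighbouring gene Abcb1b, a paralog that encodes a multidrug transporter. It had relative levels of -1.65 and -2.05 in WT and -1.49 and 0.03 in LKO. Its difference of 1.12 was the largest of the 18 shared members and exceeded the pooled SD of 0.79, but it rested on LKO replicate 2, with 39.2 estimated tags against 14.7 in LKO replicate 1, and only 3.35 tags were estimated in WT replicate 2. The difference was 0.36 without LKO replicate 2 and 1.88 without LKO replicate 1. Abcb1a and Abcb1b had no peak assigned to them.

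Atp8b1, on the minus strand of chromosome 18, had the most peaks of the members in WT, and in LKO it had as many as Abcb4. Genes with 10 or more WT peaks made up 1.34% of the WT list. Its strongest peak was in the promoter, 370 bp upstream of the start site in WT and 364 bp in LKO. Estimated tags were 271 and 48.5 in WT and 232 and 229 in LKO, and the peak ranked 624 and 271 in the respective lists. Relative levels were 2.08 and 1.81 in WT and 2.49 and 2.58 in LKO. Both LKO values exceeded both WT values, and the difference of 0.59 was larger than the pooled SD of 0.15. It was 0.45 to 0.73 when each library was left out in turn. It was 0.56 with libraries scaled to the same sum, 0.26 without centring and 0.11 with each library centred on all peaks of its list, and the last of these was smaller than 0.15. The LKO input at this peak, 3.03 or an estimated 3.35 tags, was the highest of any LKO member, against -0.04 in WT, and its part was not tested. No IR1, ER8 or exact AGGTCA site was found within 100 bp of its centre.

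The other 4 shared peaks of Atp8b1 lay in intron 1. At 27879 bp into the gene the relative level was 1.57 and 1.55 in WT and 1.64 and 1.99 in LKO, with a difference of 0.25 and a pooled SD of 0.17. At 34618 bp it was 0.57 and 0.09 in WT and 0.88 and 0.58 in LKO, with a difference of 0.40 and a pooled SD of 0.28. At both sites the LKO libraries lay above the WT libraries, with a gap of 0.07 between the nearest values at the former and 0.01 at the latter. The former difference was 0.08 without LKO replicate 2 and 0.43 without LKO replicate 1, and the latter 0.16 without WT replicate 2, 0.63 without WT replicate 1 and 0.25 without LKO replicate 1. At 25473 bp, in an L1MB3 repeat, the relative level was 0.19 and 0.44 in WT and 0.19 and -0.32 in LKO, a difference of -0.38 beyond the pooled SD of 0.29, which was -0.12 without LKO replicate 2 and -0.64 without LKO replicate 1. At 42335 bp it was -0.91 and -0.27 in WT and -0.48 and -0.98 in LKO, a difference of -0.14 within the pooled SD of 0.41. Of the 4 differences, 2 were above 0 and 2 below, but all 4 were below 0 when each library was centred on all peaks of its list, at -0.22, -0.08, -0.86 and -0.62 in the order given.

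Atp8b1 also held the strongest unshared member, an intron 1 peak 28585 bp into the gene at the 64.4 percentile of the WT list. It had an estimated 46.2 and 12.9 tags and relative levels of -0.47 and -0.11. It was the unshared member closest to a peak of the other list, with a gap of 526 bp. The other 4 unshared WT peaks of Atp8b1 had mean relative levels from -2.00 to -1.06. One LKO peak without a WT counterpart, in a B1_Mus1 element of intron 1 36952 bp into the gene, had relative levels of -1.26 and -0.81. The unshared peaks of this gene were thus weaker than its strongest shared peaks in the same list. However, the unshared WT peak at 28585 bp was stronger than the shared WT peak at 42335 bp, which lay at the 53.5 percentile.

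Abcg5 and Abcg8 lie head to head on chromosome 17, with start sites 110 bp apart. The peak of this shared promoter was annotated as promoter of Abcg5 but assigned by name to Abcg8, 379 bp downstream of its start site. Its WT centre was 489 bp from the start site of Abcg5, and so the absence of peaks named Abcg5 does not mean that none lay near that gene. Estimated tags were 78.3 and 15.6 in WT and 43.5 and 24.5 in LKO. Relative levels were 0.29 and 0.17 in WT and 0.07 and -0.65 in LKO. Both LKO values lay below both WT values, and the difference of -0.52, the lowest of the 18 shared members, exceeded the pooled SD of 0.37. It was -0.16 without LKO replicate 2 and -0.88 without LKO replicate 1. The peak held an exact AGGTCA site and no IR1 match.

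The strongest peak of Abcg8 was in intron 6, 10855 bp from the start site, with relative levels of 0.75 and 0.98 in WT and 0.73 and 0.78 in LKO. The genotypes overlapped there, and the difference of -0.11 was within the pooled SD of 0.12. This peak carried the IR1 match TGGTCAGTGTCCT at chr17:84694021-84694033, with A1T and A10T, 51 bp from the WT centre. An ER8 match with 2 mismatches overlapped it, and matches to the direct repeat DR1 (AGGTCA, 1 base, AGGTCA) with 2 mismatches were also present. The pair of peaks in intron 3 had relative levels of 0.46 and -0.10 (WT) and -0.13 and 0.18 (LKO) at 5944 bp. At 6463 bp the values were -0.35 and -0.49 (WT) and -0.66 and -0.27 (LKO). Neither differed between genotypes by more than the pooled SD, with differences of -0.16 and -0.05. The former held an exact AGGTCA site, and its LKO input was 2.97 against -0.30 in WT. The unshared WT peak of Abcg8, 49588 bp downstream and inside intron 25 of 37 of Lrpprc, had relative levels of -2.15 and -0.89.

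Abcc2, on the plus strand at chr19:43782308-43838218, had its strongest peak in intron 2, 10419 bp from the start site and in an RMER1B repeat. Estimated tags were 134 and 41.3 in WT and 74.5 and 80.4 in LKO. The relative level was 1.07 and 1.57 in WT and 0.85 and 1.06 in LKO. At the intron 3 peak, 15023 bp from the start site, it was 0.05 and 0.28 in WT and -0.17 and 0.04 in LKO. Both LKO libraries lay below both WT libraries at each peak, with a gap of 0.01 between the nearest values at each. The differences were -0.36 and -0.23, with pooled SDs of 0.27 and 0.16. Both were -0.11 without WT replicate 2, and -0.62 and -0.35 without WT replicate 1. Without LKO replicate 1 the intron 3 difference was -0.12. Abcc2 was the only member with more than 1 shared peak where both LKO libraries lay below both WT libraries at all of them. It had only 2 such peaks, and 25.2% of all shared peaks met this criterion. The LKO mean was also lower at each of the 4 shared Abcg8 peaks, with differences from -0.52 to -0.05. LKO input was high at both Abcc2 peaks, at 2.99 and 2.96, against -0.13 and 1.80 in WT, and its part was not tested. The intron 3 peak held TTCCAGGAA, an exact match to TTCNNNGAA, and no IR1 match. The intron 2 peak held no IR1 match either.

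The promoter of Abcc2 carried a peak in the WT list alone, centred 12 bp from the start site at chr19:43782215-43782425. It was weak, with an estimated 18.6 and 5.86 tags, relative levels of -1.78 and -1.24 and a rank of 16137 of 20040, and the nearest LKO peak was 10225 bp away. The strongest unshared WT peak of Abcc2 lay 14.1 kb upstream, in exon 9 of 9 of Cutc, with relative levels of -0.96 and -0.48. The other 3 unshared WT peaks, the promoter peak among them, had mean relative levels from -2.00 to -1.51. The peak found in LKO alone, in an Lx8 LINE element of intron 11 at chr19:43809528-43809732, had an estimated 20.3 and 25.9 tags and relative levels of -1.03 and -0.57. It held the IR1 match AAGGCATTGACCT, with G2A and T4G, 4 bp from its centre.

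Abcg2, on the plus strand at chr6:58596672-58692451, had a strongest peak below those of the other members with a peak. Its only peak was found in WT, in intron 1 of 15 at chr6:58640100-58640310, 43533 bp from the start site. It held an estimated 16.9 and 3.29 tags, with relative levels of -1.92 and -2.08, and lay at the 2.08 percentile of the WT list. The weakest WT peaks of Abcc2, 4783 bp upstream, and of Atp8b1, 52372 bp into the gene, had the same values. No LKO peak was centred within 100 kb of the start site of Abcg2, the nearest being at 355070 bp. Both lists keep only regions that passed the authors' thresholds, so a region without a peak has no value here, and no difference could be computed for it.

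**Figure D3:**
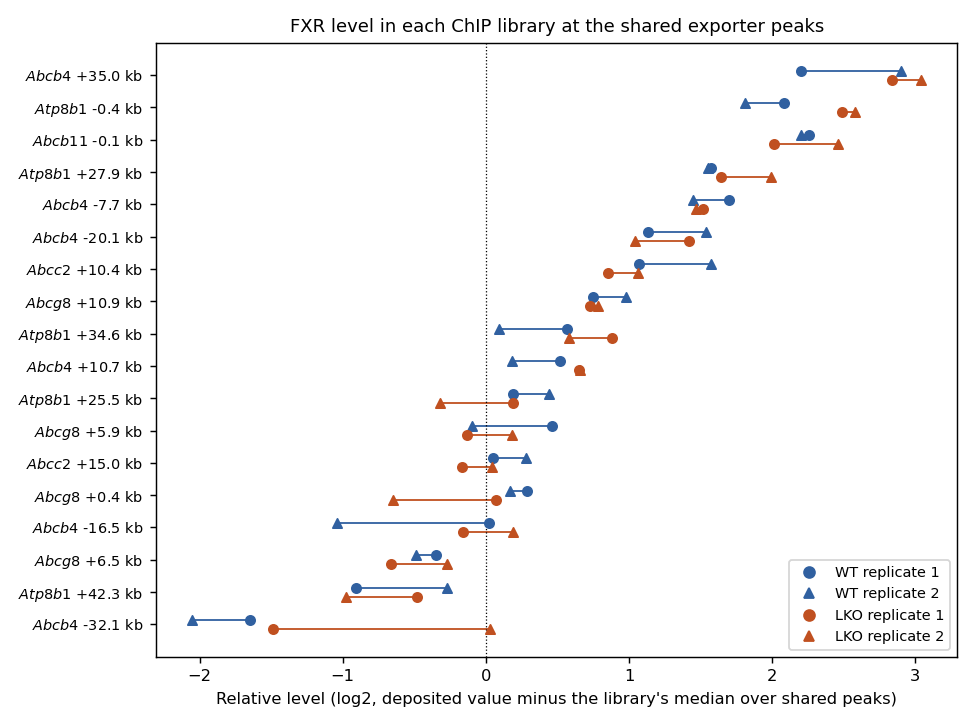
Relative level (log2, horizontal axis) of the 18 shared exporter peaks in each ChIP library, with circles for replicate 1, triangles for replicate 2 and lines joining the libraries of a genotype; distances are from the start site. The libraries of the genotypes overlapped at 10 of 18 peaks, beside 4457 of all 9918 shared peaks. The Abcb4 peak in intron 14 was highest on average in both genotypes.

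Ordered by its strongest peak in WT, the members ran Abcb4 (2.55 ± 0.50), Abcb11 (2.23 ± 0.04), Atp8b1 (1.94 ± 0.20), Abcc2 (1.32 ± 0.36), Abcg8 (0.86 ± 0.16) and Abcg2 (-2.00 ± 0.11), as mean relative level ± SD of 2 libraries. Abcb4 and Abcb11 differed by less than their pooled SD, and each of the other neighbours by more. In LKO the order was Abcb4 (2.94 ± 0.14), Atp8b1 (2.53 ± 0.06), Abcb11 (2.23 ± 0.32), Abcc2 (0.96 ± 0.15) and Abcg8 (0.76 ± 0.03), and every gap exceeded the pooled SD. Among all genes ranked by their strongest peak, Abcb4 stood at 218 of 9025 in WT and 114 of 6877 in LKO, and Abcg2 at 8867 of 9025 in WT.

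Over the 18 shared members, the LKO minus WT difference had a median of -0.06 and a mean of 0.08, which differ in sign, and ranged from -0.52 to 1.12. Over all 9918 shared peaks the median was 0.03. The difference exceeded the pooled SD at 10 of 18 members (55.6%), against the 63.2% of all shared peaks, with LKO higher at 6 and lower at 4. Of all 9918 shared peaks, LKO was higher beyond the SD at 3347 and lower at 2918. Both LKO libraries lay above both WT libraries at 5 members and below at 3, and the genotypes overlapped at 10. Among all 9918 shared peaks the genotypes overlapped at 4457. By gene, the median difference was -0.13 over the 4 Abcg8 peaks and -0.30 over the 2 of Abcc2. It was 0.35 over the 6 Abcb4 peaks and 0.25 over the 5 of Atp8b1, but -0.13 and -0.22 when each library was centred on all peaks of its list, and 0.02 and -0.07 without centring. The difference of 0.00 at Abcb11 was -0.47 and -0.33 on these scales, both beyond its pooled SD of 0.23. These scales lowered every difference by nearly the same amount, so a value already below 0 could not change sign under them. Without centring, the difference over all shared peaks moved to a median of -0.30, and the members beyond the pooled SD were then higher in LKO at 2 and lower at 9. Centred on all peaks of each list, that median was -0.45 and the split 0 to 12. No split over all shared peaks is given for these scales, so these counts do not set the members apart. Without the shallow WT replicate 2, 6 members in place of 10 exceeded the SD, 3 in each direction. The SD was then that of the LKO libraries alone, so 6 and 10 were not counted against the same SD. The count without this replicate was not made over all shared peaks either.

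**Figure D4:**
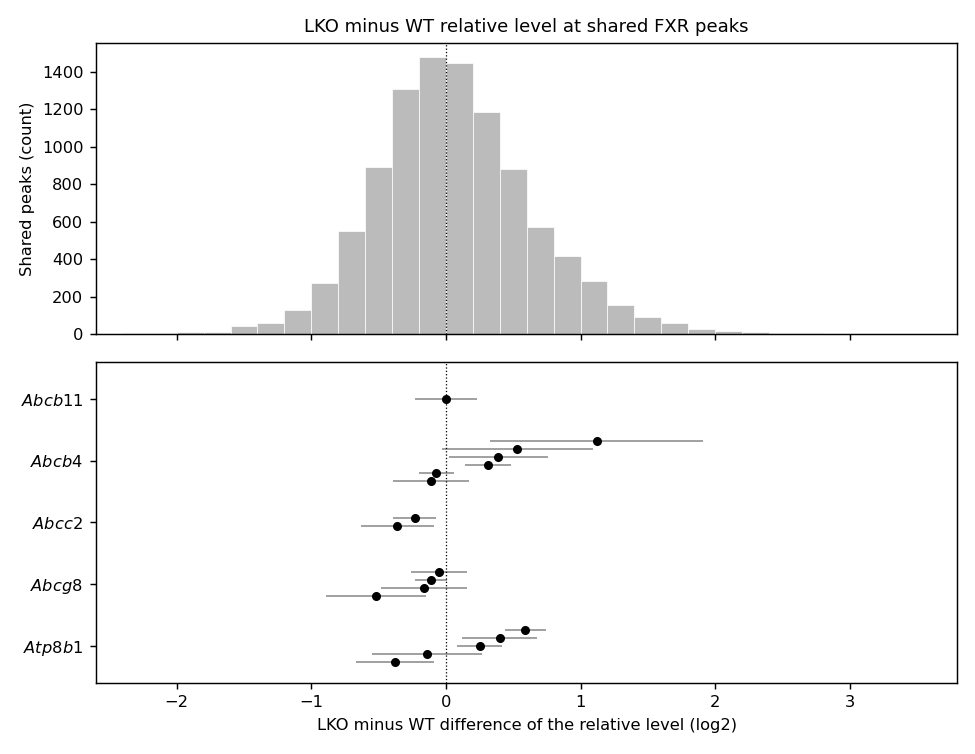
LKO minus WT difference of the relative level (log2, horizontal axis) for all 9918 shared peaks (upper, counts per bin) and for the 18 exporter peaks by gene (lower, points with bars of 1 pooled SD of the libraries on either side). The exporter peaks spread from -0.52 to 1.12 around a median of -0.06, within the bulk of all shared peaks.

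The peaks had been kept for their excess over the same input, so the size of that excess is given as a description. The median of ChIP minus input over the WT members was 4.53 log2 units in replicate 1 and 5.22 in replicate 2, beside 4.25 and 4.83 over all WT peaks. In LKO it was 4.51 and 4.56, beside 4.51 and 4.32 over all LKO peaks. The smallest value at any member was 1.91, at the Abcc2 intron 3 peak in LKO. Of the 20 LKO members, 6 had an input value above the 95th percentile of the list, at Abcb11, Abcb4, Abcc2, Abcg8 and Atp8b1, beside 5.00% of all LKO peaks, and 1 of 29 WT members did. These inputs amounted to at most 3.49 estimated tags. Over the 11 shared members with no such input in either genotype, the median difference was -0.07, with LKO higher beyond the SD at 4 and lower at 2. This split was not computed over all shared peaks without such input, so it does not set the members apart.

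An IR1 match within 100 bp of the centre was found in 4 of 29 WT members (13.8%, 5.50 to 30.6) and 5 of 20 LKO members (25%, 11.2 to 46.9), beside 11.9% and 16.3% of all peaks and 0.963% and 1.01% of windows 2 kb away. The same 4 shared peaks, at Abcb11, Abcb4 (intron 14 and 20.1 kb upstream) and Abcg8 (intron 6), accounted for 4 of 18 shared members (22.2%) in each list, beside 16.7% of all shared WT peaks. Among unshared members, 0 of 11 in WT and 1 of 2 in LKO held one, beside 7.27% and 14.3% of all unshared peaks, and these numbers are too small to set the members apart. The exact AGGTCA site was present in 10 WT and 8 LKO members (34.5% and 40.0%), close to the 40.5% and 41.6% of all peaks. TTCNNNGAA was found in 2 members of each list (6.90% and 10.0%), beside 6.84% and 6.55% of all peaks and 6.38% and 6.36% of distant windows. CAAGGTCA, a site type bound by LRH-1, was found in no member of either list, beside 4.32% and 4.04% of all peaks.

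By annotation, 18 WT and 13 LKO members lay in introns (62.1% and 65.0%, beside 46.5% and 47.4% of all peaks), and 4 and 3 in promoters (13.8% and 15.0%, beside 11.4% and 11.3%). The promoter peaks were those of Abcb11, Atp8b1, the Abcg8 and Abcg5 pair and, in WT, Abcc2. Some peaks near the members carried other gene names. Within 100 kb of a start site these were named Dhrs9 near Abcb11, Crot near Abcb4, Gm10768 near Abcc2, and Lrpprc and Dync2li1 near Abcg5 and Abcg8, and a peak inside Atp8b1 was named Nars. Counting every peak centred within 100 kb of a member start site gave 35 WT and 22 LKO peaks.

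The peak whose 4 relative levels were most like those of the Abcb11 promoter was intergenic and assigned to 4933440M02Rik, at a Euclidean distance of 0.16 log2 units over the 4 libraries. The next were an exonic peak of Gm960 at 0.18 and an intronic peak of Kmo, a kynurenine pathway enzyme, at 0.19, among 5918 other genes with a shared peak. Kmo had relative levels of 2.23 and 2.19 in WT and 2.06 and 2.28 in LKO. None of the 3 was annotated in the promoter class, unlike that of Abcb11, though the Gm960 peak was centred 374 bp from a start site.

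Among 33 other genes of bile formation, 29 had a WT peak, 22 an LKO peak and 20 a shared peak, 7 had a WT peak alone and 4 had none. Of all genes with a WT peak, 69.2% also had an LKO peak. Of their 114 WT peaks 44.7% were shared, beside 49.5% of all WT peaks. Of the 57 LKO peaks of these bile formation genes 89.5% were shared, beside 79.4% of all LKO peaks. Nr0b2, the nuclear receptor SHP, had 3 shared peaks and reached the 99.9 percentile of strength in WT and the 99.6 in LKO. Slc51b, a subunit of the basolateral BA exporter, had a single peak, shared, at the 98.9 and 99.0 percentiles. Slc10a1, the BA uptake transporter NTCP, had 3 WT and 2 LKO peaks and reached the 98.4 and 95.2 percentiles. The basolateral exporter Abcc3 had 5 WT and 0 LKO peaks, the strongest at the 68.7 percentile, and Tmem30a, which encodes the partner subunit of ATP8B1, had 1 WT peak at the 14.4 percentile and 0 LKO peaks. The liver genes Alb, Ttr, Apoa1 and Hnf4a each had a shared peak.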

How the data were processed

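FXR was immunoprecipitated from crosslinked liver, and 100-bp single-end reads were aligned by the authors to mm10 with Bowtie (version 1.2 in the submitters' processing notes), keeping unique alignments. HOMER (4.10) tag directories were limited to 1 tag at each position. As the file headers show, the ChIP libraries of each genotype were pooled for peak calling over the matching input, and peaks passing thresholds of 0.05 (adjusted p-value) and 1 (log2 fold change over input) were kept; the authors' own fold changes and p-values were not used. The deposited value of each library is not whole and can be negative, and was taken as a regularized log2 tag value. The deposited Peak Score is a signal scaled to 10000000 tags, and the deposited focus ratio is a fraction; neither gave a printed result.

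Library totals came from the file headers. Estimated tags were 2 to the power of the log2 value, times the library total over the mean total of the 3 libraries of its table. Low values are shrunken by the transform, so these are approximate. Strength was the mean log2 value of the ChIP libraries. Motifs were searched within 100 bp of peak centres on both strands. The authors' distances to the start site matched RefSeq of GRCm38.p6 within 2 bp for all 49 peaks. Intervals on shares are 95% Wilson intervals. All 6 samples were grouped from their labels, and no comparison had a test.

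The 7 genes and the gene lists were chosen with earlier results of these data known. All 7 genes were described, with library values for every shared peak and for the strongest unshared peak of each; the 3 genes most like Abcb11 were those with the smallest Euclidean distance, and 33 bile formation genes and 4 liver genes were counted. Alternatives covered strength, tag minimum, gene assignment, overlap, centring, left-out libraries, motif mismatches and promoter definition. Software was pysam 0.24.0, matplotlib 3.10.9, scipy 1.17.1, pandas 2.3.3 and numpy 2.4.6 under Python 3.11.15. Overlap, motif and centring code was tested on simulated data.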

Additional observations from a re-analysis of the deposited data

How the results depend on the processing

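Of 52 alternative values of the summary results, 36 stayed within their error or within 1.5 times the count and 16 moved. Keeping peaks at or above the median strength of their list left 18 WT members, raised the shared share to 94.4% in WT and 100% in LKO, and raised the median ChIP minus input value from 4.70 to 5.84 in WT and from 4.51 to 4.82 in LKO. Asking for 10 estimated tags in both ChIP libraries left 16 WT and 20 LKO members (55.2% and 100%), beside 44.2% and 99.6% of all peaks. The other overlap definitions gave the same 18 shared peaks in each list. The median difference over the 18 shared members, -0.06, was -0.39 without centring and -0.54 with each library centred on its list, and 0.00 to 0.08 with 1 library left out; it was -0.11 over the 15 shared members with 10 or more estimated tags in all 4 ChIP libraries, an alternative chosen after seeing the data. Leaving out 1 library gave 6 to 13 members beyond the SD, which then came from the complete genotype alone and not from both. These counts were not made over all shared peaks, so they do not set the members apart. The median ChIP minus input value was 4.53 to 5.22 in WT and 4.51 to 4.56 in LKO with 1 library left out, and 4.66 in LKO without members of high input, also chosen after seeing the data. With at most 3 mismatches the IR1 share was 48.3% in WT and 55.0% in LKO, beside 36.5% and 44.1% of all peaks; with at most 1 it was 6.90% and 10.0%, beside 2.48% and 3.55%. For single peaks, the scales without centring and with centring on the list lowered every difference by nearly the same amount, and those above 0 and smaller than that amount changed sign. Centring on the list gave -0.08 and -0.22 at the Atp8b1 peaks 34618 and 27879 bp into the gene and -0.17 and -0.09 at the Abcb4 peaks at 10675 and 35010 bp, and no centring gave -0.07 at the Atp8b1 peak at 27879 bp and -0.02 at the Abcb4 peak at 10675 bp. No left-out library changed the sign of a difference that had exceeded its SD. No paired analysis was possible because nothing in the labels ties a WT library to an LKO library beyond the replicate number, and the separately normalized tables were not tested against each other. Only 13.2% of WT ChIP tags came from WT replicate 2, and the median WT member held 12.9 estimated tags in it, which limits every WT spread.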
